A study of Mus musculus with 6 samples.

Results

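Dusp6 and 9 further genes that restrain the ERK pathway or report its activity were followed in old mouse brains with and without a full dose of Sgo1. The group holds the phosphatase genes Dusp6, Dusp1, Dusp4 and Dusp5, the Sprouty and Spred genes Spry2, Spry4, Spred1 and Spred2, and the transcription factor genes Etv4 and Etv5, which is 10 of the 38087 genes in the deposited table. The others belong to the same feedback pathway and were picked with earlier results of these data known. Dusp6 was picked because its counts in the WT and Sgo1-/+ libraries do not overlap. Its difference between the genotypes is therefore given as a description, without a test. Brain RNA came from 3 wild-type (WT) mice and 3 mice lacking a single allele of Shugoshin-1 (Sgo1-/+), all of C57BL6 background, untreated and 24 months old. Shugoshin-1 protects the cohesion of sister chromatids in mitosis, and its haploinsufficiency serves here as a model of chromosome instability. WT replicate 1 and Sgo1-/+ replicate 2 were male and the other 4 mice female. The tissue was frozen cerebrum, which included the cortex and the hippocampus, while the medulla, the cerebellum and the olfactory bulb had been removed. The WT libraries came from sequencing run 258 and the Sgo1-/+ libraries from run 259, so an effect of the run and an effect of the genotype cannot be told apart.

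The ERK cascade carries signals from receptor tyrosine kinases, and in neurons also from calcium entry, through Ras, Raf and MEK to the ERK kinases. Active ERK induces its own brakes. The phosphatases of the Dusp family remove the activating phosphates from MAP kinases, with Dusp6 acting in the cytoplasm and preferring ERK. Sprouty and Spred proteins act upstream, at the level of Ras and Raf, while Etv4 and Etv5 are Pea3 family factors that are induced by FGF and neurotrophin signals. The RNA of such genes is widely read as a record of recent ERK activity, and in brain several of them follow neuronal activity.

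Each library held from 11123917 to 12505561 estimated counts in all. The targeted gene gave no check of the labels at this depth, since the Sgo1 row held 0, 7 and 0 estimated counts for the WT mice and 4, 2 and 0 for the Sgo1-/+ mice, where a count of 0 allows up to 3 counts. Xist and Ddx3y matched the labelled sex of all 6 libraries. WT replicate 1 stood apart, with markers that go against its label of cerebrum. A list of 7 forebrain neuron genes summed to 2971 normalized counts in that library, and the other 5 lay from 12651 to 15692. A list of 8 brain stem genes summed to 3858 in WT replicate 1 against 14.8 to 54.3 elsewhere, and 8 cerebellar genes summed to 22576 against 2648 to 3074. Hoxb5, which marks the hindbrain, was at 0 in WT replicate 3 and in Sgo1-/+ replicates 2 and 3, and at 404 in WT replicate 1. The differences below are therefore given with and without WT replicate 1. Leaving it out did not even out all tissue markers. In the other 5 libraries, 5 of 6 olfactory bulb genes were lower in Sgo1-/+, although the bulb is described as removed. Likewise 5 of 5 oligodendrocyte genes were higher. Both counts are at an unadjusted p under 0.05 by edgeR's quasi-likelihood test, where 1.91% of all tested genes were called lower and 1.86% higher.

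Dusp6 (ENSMUSG00000019960) lies on the plus strand of chromosome 10 of mm10 from 99263231 to 99267488. In replicate order, WT had 311, 450 and 447 normalized counts (estimated counts scaled to a common library size) and Sgo1-/+ had 607, 797 and 757, an order kept in all lists of values that follow. Every Sgo1-/+ library was above every WT library, which is what the gene was chosen for, and WT replicate 1 was the lowest of the 6. WT averaged 403 ± 79.2 (SD, n = 3) and Sgo1-/+ averaged 720 ± 100.2 (SD, n = 3), a ratio of 1.79, or 1.61 without WT replicate 1. The fitted log2 fold change, taken as Sgo1-/+ minus WT throughout, was 0.84 (SE 0.184). Without WT replicate 1 it was 0.69 (SE 0.141), and among the 4 females alone it was 0.61 (SE 0.152). As in any bulk sample, a larger number of expressing cells and more RNA per cell cannot be told apart.

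Dusp4 (ENSMUSG00000031530, chromosome 8, 34807297 to 34819894, plus strand) encodes a nuclear phosphatase of ERK and JNK. WT had 79.0, 79.1 and 47.4 normalized counts and Sgo1-/+ had 95.0, 136 and 178. The groups did not overlap, and the Sgo1-/+ libraries were spread wider than the gap between the genotypes. WT averaged 68.5 ± 18.3 (SD, n = 3) and Sgo1-/+ averaged 136 ± 41.7 (SD, n = 3), a ratio of 1.99. The log2 fold change of 0.99 (SE 0.309) had, by the quasi-likelihood test of edgeR, an unadjusted p of 0.0151 and a Benjamini-Hochberg adjusted p of 0.9999 over all genes. Leaving out WT replicate 1 gave 1.10 (SE 0.339; edgeR, unadjusted p = 0.0131), and leaving out Sgo1-/+ replicate 3 gave 0.75 (edgeR, unadjusted p = 0.0579).

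Dusp1 (ENSMUSG00000024190, chromosome 17, 26505590 to 26508519, minus strand) encodes a nuclear phosphatase that is an immediate early gene product and acts also on p38 and JNK. WT had 368, 411 and 212 normalized counts and Sgo1-/+ had 444, 555 and 351. Sgo1-/+ replicate 3 lay below 2 of the WT libraries, so the groups overlapped. Dusp1 had a log2 fold change of 0.45 (SE 0.277; by edgeR, unadjusted p = 0.151 and adjusted p = 0.9999), and of 0.53 without WT replicate 1.

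Dusp5 (ENSMUSG00000034765, chromosome 19, 53529109 to 53542431, plus strand), a nuclear phosphatase specific for ERK, had the only negative difference of the group. It was at 355, 197 and 144 normalized counts in WT and 182, 149 and 146 in Sgo1-/+. The WT count was high in replicate 1, the library with the hindbrain genes, and the other 5 libraries lay together. For Dusp5 the log2 fold change was −0.55 (SE 0.329; by edgeR, unadjusted p = 0.142 and adjusted p = 0.9999), and −0.10 once WT replicate 1 was left out. Without WT replicate 3 it was −0.79, the groups did not overlap and the unadjusted p by edgeR was 0.0308. The noncoding gene AC137853.2, on the other strand, overlaps 547 bases of Dusp5 exons, and the sources used here do not say whether the counting used the strand.

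**Figure D1:**
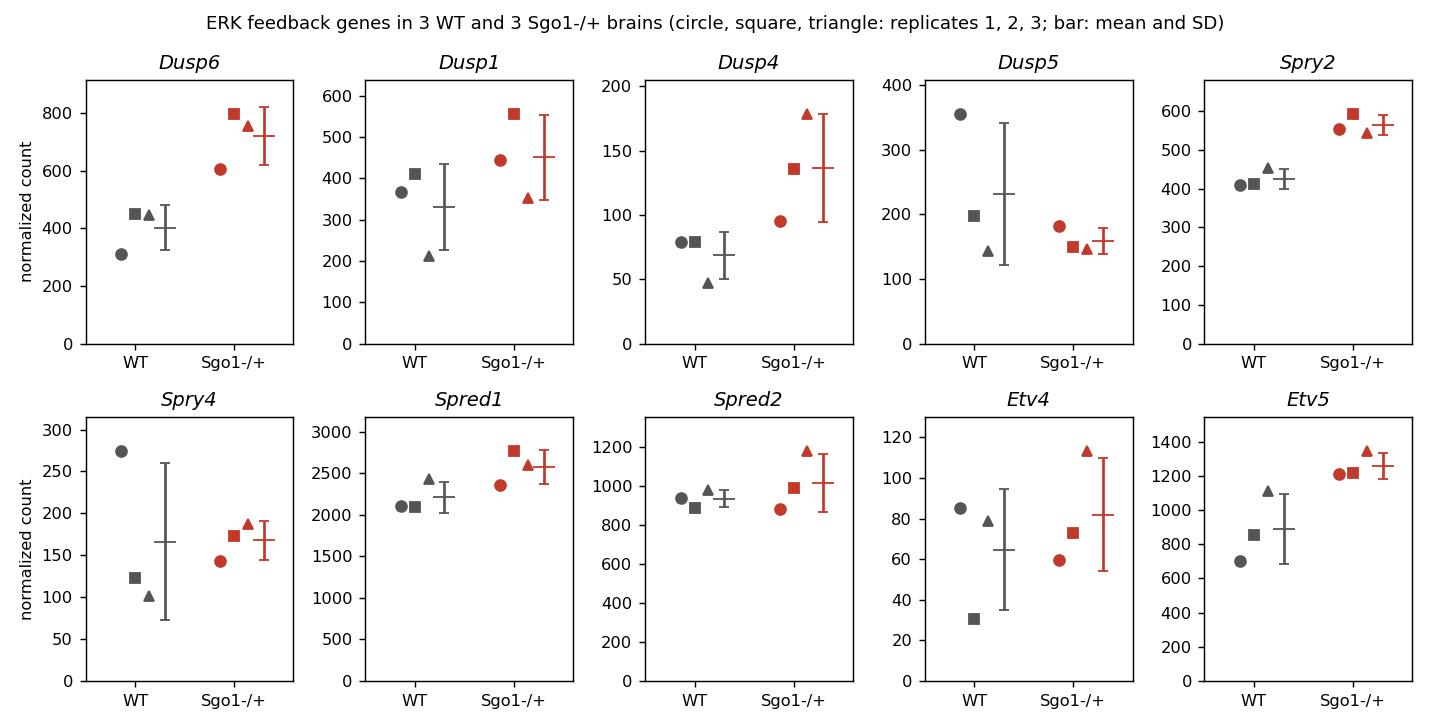
Normalized counts (vertical axes, each starting at 0) of the 10 genes in the 3 WT (grey) and 3 Sgo1-/+ (red) libraries, with circle, square and triangle for replicates 1, 2 and 3 and a bar for the mean and SD. In Dusp6, Dusp4, Spry2 and Etv5 every red point lies above every grey one, and in Dusp5 and Spry4 the grey circle of WT replicate 1 is the highest point.

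RefSeq promoter windows of 300 bases, from 250 before to 50 after the start in GRCm38.p6 (the assembly of mm10), were at hand for 7 of the 10 genes, in 8 windows because Etv5 has a pair of starts. Dusp4, Spry4 and Etv4 had none. The windows were searched on both strands for the cAMP response element TGACGTCA, the AP-1 site TGACTCA, the ETS site CCGGAAGT and the SRF CArG box, which are known in promoters of genes induced by neuronal activity or by ERK. The windows of Dusp6, Dusp1 and Dusp5 are shown 5′ to 3′, because Dusp6 is the gene the group is built on and the other two hold the only matches among the members. Capitals mark the matches:
Dusp6, chr10:99262981-99263280, plus strand: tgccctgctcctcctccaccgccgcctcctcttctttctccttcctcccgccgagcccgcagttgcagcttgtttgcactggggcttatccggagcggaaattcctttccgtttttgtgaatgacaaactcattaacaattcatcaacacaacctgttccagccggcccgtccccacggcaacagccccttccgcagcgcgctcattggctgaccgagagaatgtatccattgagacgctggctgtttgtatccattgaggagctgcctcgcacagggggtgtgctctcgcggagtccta
Dusp1, chr17:26508423-26508722, minus strand: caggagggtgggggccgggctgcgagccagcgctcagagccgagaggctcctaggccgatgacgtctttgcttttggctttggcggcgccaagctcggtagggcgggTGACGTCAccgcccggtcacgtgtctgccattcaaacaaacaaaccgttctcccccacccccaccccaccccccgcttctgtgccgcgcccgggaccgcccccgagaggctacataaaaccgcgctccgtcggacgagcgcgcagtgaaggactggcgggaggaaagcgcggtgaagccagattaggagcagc
Dusp5, chr19:53528895-53529194, plus strand: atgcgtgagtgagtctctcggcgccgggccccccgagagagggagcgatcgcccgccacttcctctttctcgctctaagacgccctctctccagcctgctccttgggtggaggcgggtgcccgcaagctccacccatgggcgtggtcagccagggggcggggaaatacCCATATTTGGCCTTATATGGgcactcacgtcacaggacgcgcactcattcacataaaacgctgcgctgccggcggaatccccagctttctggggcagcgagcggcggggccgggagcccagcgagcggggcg
The match of Dusp1 is a cAMP response element whose first base lies 143 bases before the start. Dusp5 holds a pair of CArG boxes directly side by side, beginning 82 and 72 bases before the start. Of all 32851 windows, 1.79% held the cAMP response element, 5.20% the AP-1 site, 3.89% the ETS site and 1.63% a CArG box. Dusp6, Spry2, Spred1, Spred2 and Etv5 held none of these letters in their windows, which says nothing of sites elsewhere.

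Spry2 (ENSMUSG00000022114, chromosome 14, 105891949 to 105896819, minus strand), a Sprouty inhibitor of receptor tyrosine kinase signalling, varied little within a genotype. WT had 410, 412 and 454 normalized counts and Sgo1-/+ had 556, 593 and 544. The groups did not overlap, and WT replicate 1 was close to WT replicate 2. WT averaged 425 ± 25.3 (SD, n = 3) and Sgo1-/+ averaged 564 ± 25.6 (SD, n = 3), a ratio of 1.33. By edgeR, the log2 fold change of 0.41 (SE 0.105) had an unadjusted p of 0.00614 and an adjusted p of 0.9999. Leaving out WT replicate 1 gave 0.38 (by edgeR, unadjusted p = 0.00983), and leaving out each library in turn gave 0.37 to 0.46.

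Spry4 (ENSMUSG00000024427, chromosome 18, 38586268 to 38601268, minus strand), another Sprouty gene and a classical FGF target, was measured at 274, 123 and 102 normalized counts in WT and at 143, 173 and 188 in Sgo1-/+. WT replicate 1 was the highest of all 6 libraries and the other two WT libraries were the lowest. With all libraries its log2 fold change was 0.01 (SE 0.376; by edgeR, unadjusted p = 0.974 and adjusted p = 0.9999). Leaving out WT replicate 1 made it 0.58 (SE 0.197; by edgeR, unadjusted p = 0.0207 and adjusted p = 0.9995), and the groups then did not overlap. When WT replicate 3 was left out, the value became −0.24, so the sign of Spry4 rests on which library is kept.

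Spred1 (ENSMUSG00000027351, chromosome 2, 117121374 to 117182279, plus strand) recruits neurofibromin to the membrane to switch off Ras. WT had 2107, 2092 and 2424 normalized counts and Sgo1-/+ had 2360, 2761 and 2595. Only Sgo1-/+ replicate 1 fell within the WT range. Spred1 had a log2 fold change of 0.22 (SE 0.118; by edgeR, unadjusted p = 0.104 and adjusted p = 0.9999), and of 0.19 without WT replicate 1.

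Spred2 (ENSMUSG00000045671, chromosome 11, 19924375 to 20024026, plus strand), its close relative, showed 938, 891 and 980 normalized counts in WT and 884, 993 and 1179 in Sgo1-/+. The lowest count of all belonged to a Sgo1-/+ library, and the other two Sgo1-/+ libraries lay above every WT library. Spred2 had a log2 fold change of 0.12 (SE 0.130; by edgeR, unadjusted p = 0.381 and adjusted p = 0.9999), the same 0.12 without WT replicate 1, and 0.0038 without Sgo1-/+ replicate 3.

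Etv5 (ENSMUSG00000013089, chromosome 16, 22381309 to 22439719, minus strand) was the more abundant of the Pea3 factor genes. WT had 701, 852 and 1108 normalized counts and Sgo1-/+ had 1208, 1217 and 1342. The groups did not overlap, although the gap between the highest WT and the lowest Sgo1-/+ library was narrower than the spread among the WT libraries. WT averaged 887 ± 206 (SD, n = 3) and Sgo1-/+ averaged 1256 ± 75.0 (SD, n = 3), a ratio of 1.42. By edgeR, its log2 fold change of 0.50 (SE 0.174) had an unadjusted p of 0.0240 and an adjusted p of 0.9999. Leaving out WT replicate 1 gave 0.36 (SE 0.133; edgeR, unadjusted p = 0.0291), and the unadjusted p by edgeR was 0.0748 without Sgo1-/+ replicate 3 and 0.0701 without WT replicate 2.

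Etv4 (ENSMUSG00000017724, chromosome 11, 101769742 to 101785371, minus strand) was low, at 85.0, 30.4 and 78.9 normalized counts in WT and 59.5, 73.1 and 113 in Sgo1-/+. WT replicate 2 was the lowest library, and the groups overlapped. Etv4 had a log2 fold change of 0.34 (SE 0.432; by edgeR, unadjusted p = 0.454 and adjusted p = 0.9999). It ranged from 0.0029 without WT replicate 2 to 0.58 without WT replicate 1.

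All 10 genes passed the filter on low counts. Of the 9 other than Dusp6, 8 had a positive log2 fold change and 1 a negative one, with a median of 0.34, and of 0.38 without WT replicate 1. Over all 10 the median was 0.38, and 0.46 without WT replicate 1. Over all 16337 genes tested it was −0.0007, and 0.0055 without that library. The groups did not overlap and Sgo1-/+ was higher for 4 genes, Dusp6, Dusp4, Spry2 and Etv5, and for 0 genes the reverse held. Over all tested genes 3.28% did not overlap with Sgo1-/+ higher and 3.57% with Sgo1-/+ lower, and nothing is read from these counts and medians over the 10 genes, since Dusp6 was chosen on this contrast. Without WT replicate 1 the count was 5, with Spry4 added, and the shares of all tested genes were 8.84% higher and 9.15% lower. An unadjusted p under 0.05 in edgeR's quasi-likelihood test was found for 3 of the 9 members other than Dusp6, all higher in Sgo1-/+, where 2.04% of all tested genes were called in either direction and 0.808% in that one. Without WT replicate 1 the count was 4, all higher, against 1.86% of all tested genes called higher and 1.91% lower. Without Sgo1-/+ replicate 3 it was 1, Spry2. Nothing is read from these counts over the 9 members either, since the members were chosen with earlier results of these data known. With Benjamini-Hochberg adjustment 0 of the 9 members other than Dusp6 passed 0.05, as did 0.0% of all genes. Of all genes, 333 had an unadjusted p under 0.05 by edgeR. DESeq2's Wald test gave 3 genes past the adjusted threshold, none of them among these 9 members. Across the alternatives the adjusted p of the 9 members other than Dusp6 lay between 0.764 and 1 by edgeR, DESeq2 or limma.

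**Figure D2:**
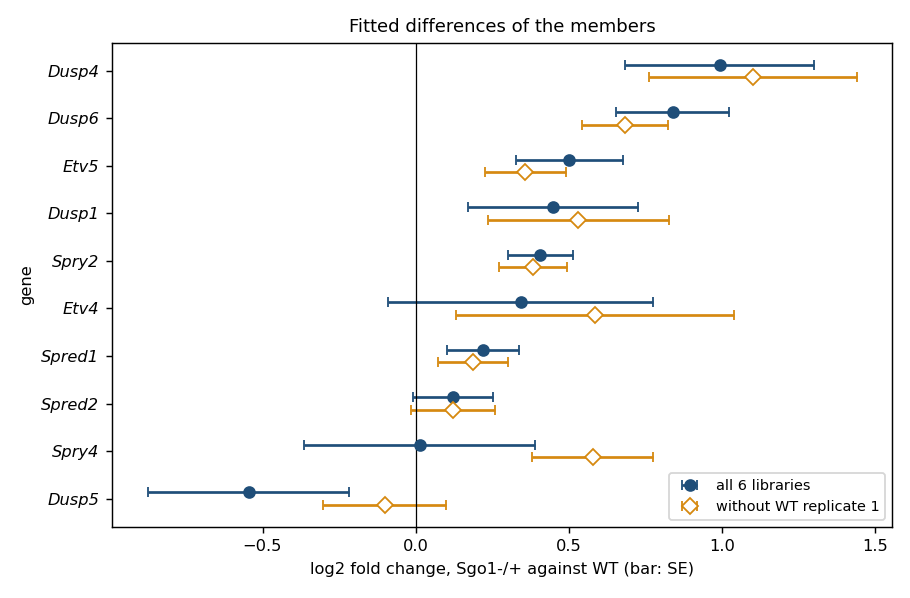
Log2 fold change of Sgo1-/+ against WT (horizontal axis, bar for the SE) of each gene, with all 6 libraries (filled circles) and without WT replicate 1 (open diamonds). Dusp4 (0.99) and Dusp6 (0.84) lie farthest to the right, and leaving out WT replicate 1 moves Spry4 from 0.01 to 0.58 and Dusp5 from −0.55 to −0.10.

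Per kilobase of exon, the levels of the 10 genes spanned more than an order of magnitude. Spred1 was at 352 normalized counts per kb as a mean over the 6 libraries, followed by Etv5 at 261, Spry2 at 237, Spred2 at 212 and Dusp6 at 179. Dusp1 (118), Dusp5 (79.1), Dusp4 (37.4), Spry4 (35.1) and Etv4 (23.6) came below. The ranges over the libraries overlapped between each pair of neighbours in this order. Spred1 was nevertheless above Etv5 in 6 of 6 libraries, while Spred2 was above Dusp6 in only 4 of 6 and Dusp4 above Spry4 in 4 of 6. In WT, Dusp6 had 129 ± 25.3 (SD, n = 3) normalized counts per kb, below the 203 ± 9.64 of Spred2, and in Sgo1-/+ it had 230 ± 32.0 (SD, n = 3) against 221 ± 32.3 of Spred2. Among 16084 tested genes with an annotated length, Spred1 stood at percentile 89.8 of level, Dusp6 at 78.3 and Etv4 at 27.6.

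**Figure D3:**
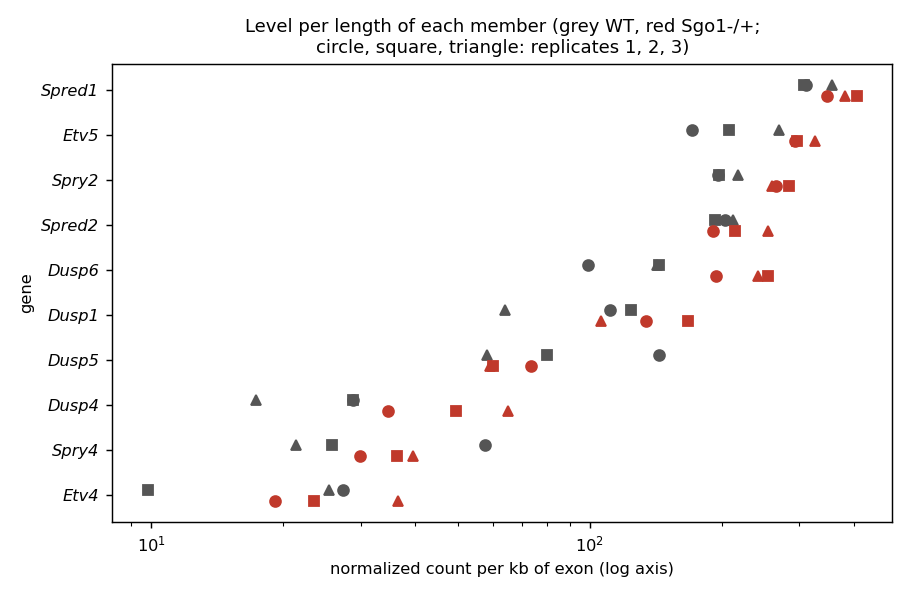
Normalized counts per kb of exon (horizontal log axis) of each gene in each library, with WT in grey, Sgo1-/+ in red and circle, square and triangle for replicates 1, 2 and 3. Genes are ordered by their mean over the 6 libraries, from Spred1 (352) to Etv4 (23.6), and neighbouring genes overlap in range.

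The pattern of Dusp6 over the 6 libraries was compared with that of other genes by the mean absolute difference in log2 CPM (a count scaled to the size of its library) after each gene's own mean was subtracted. Of 10831 genes with a mean of at least 10 CPM, the nearest was Twf2, an actin-capping twinfilin, at 0.142. It was followed by Ryr3, a calcium release channel of the endoplasmic reticulum (0.154), Parvg, an actin-binding parvin (0.154), Dnajb5, a heat shock co-chaperone (0.159), and Cacna2d3, an auxiliary calcium channel subunit (0.160). All 5 had their lowest count in WT replicate 1, as Dusp6 did. Etv5 was the nearest of the members, at 0.185 and rank 14, and Spry2 was at 0.222 and rank 53. Dusp1 (0.391), Spry4 (0.518) and Dusp5 (0.681) were farther away, with Dusp5 at rank 10439. Dusp4 and Etv4 had means under 10 CPM and were not ranked. Dusp6 and Dusp4 both had their 3 highest counts in the Sgo1-/+ libraries, but Dusp4 was lowest in WT replicate 3, like Dusp1, and Dusp6 in WT replicate 1. The genes therefore did not share a single order of libraries.

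**Figure D4:**
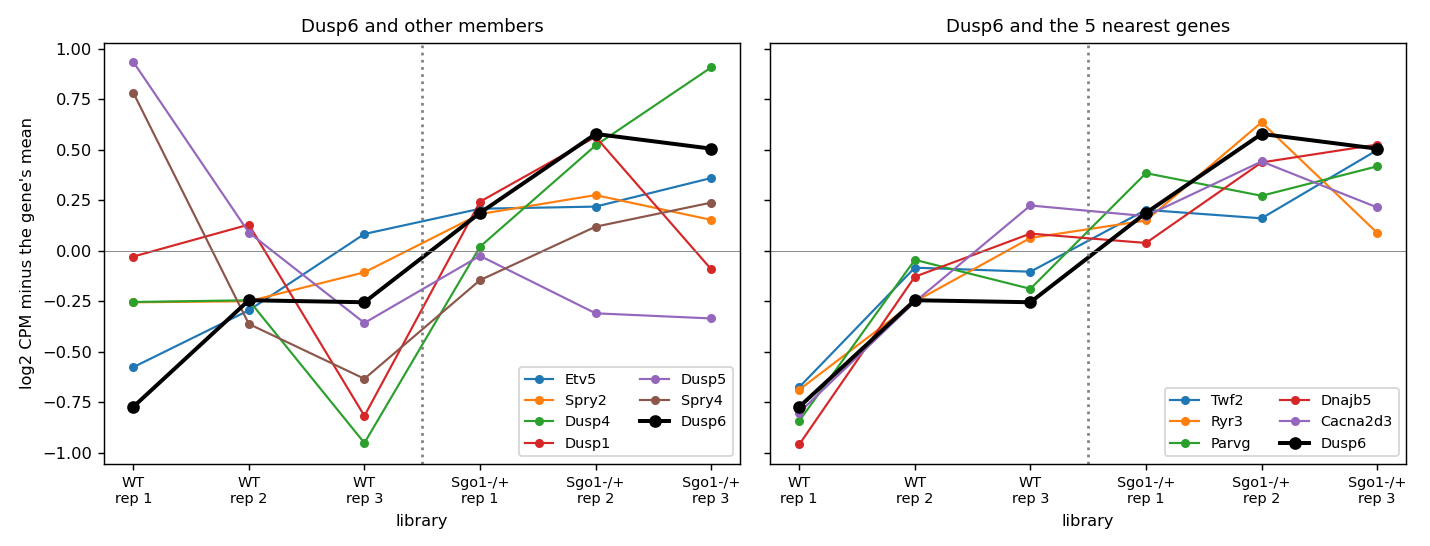
Log2 CPM minus the mean of each gene (vertical axis) across the 6 libraries, for Dusp6 in black with 6 other members on the left and with the 5 nearest genes on the right. Dusp6 runs from −0.77 in WT replicate 1 to 0.58 in Sgo1-/+ replicate 2, and Dusp5 and Spry4 start at 0.93 and 0.78 in WT replicate 1.

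The rest of the pathway was described from 7 further lists of genes grouped by their role. Among 11 other ERK output and feedback genes, 8 log2 fold changes were positive and the median was 0.35, or 0.11 without WT replicate 1. Egr1, an activity-dependent zinc finger factor, had 707, 1696 and 1248 normalized counts in WT and 1905, 3982 and 3745 in Sgo1-/+. Its groups did not overlap, and its log2 fold change was 1.40 (SE 0.387; by edgeR, unadjusted p = 0.00883 and adjusted p = 0.9999), and 1.13 (SE 0.313) without WT replicate 1.

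Fos, an immediate early subunit of AP-1, had 294, 311 and 64.9 normalized counts in WT and 367, 546 and 331 in Sgo1-/+, again without overlap. Its log2 fold change was 0.89 (SE 0.531; by edgeR, unadjusted p = 0.138 and adjusted p = 0.9999), and 1.14 (SE 0.549) without WT replicate 1. Ier3, an early response gene linked to survival signalling, was lower instead. It had 112, 170 and 122 normalized counts in WT and 108, 86.1 and 82.9 in Sgo1-/+, without overlap. The log2 fold change of Ier3 was −0.54 (SE 0.228; by edgeR, unadjusted p = 0.0492 and adjusted p = 0.9999), and −0.66 (SE 0.229) without WT replicate 1. So 1 of the 11 genes was higher and 1 lower at an unadjusted p under 0.05, where the shares of all genes were 0.808% and 1.23%.

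Relatives of the members were described next. Of 6 other MAP kinase phosphatase genes, 5 passed the filter and 0 had an unadjusted p under 0.05 in edgeR's quasi-likelihood test, with a median log2 fold change of −0.19, or 0.03 without WT replicate 1. Dusp8, the most abundant of them per length, was at 0.19 (SE 0.172), or 0.02 without WT replicate 1, and its counts overlapped between the genotypes. For 3 other Sprouty, Spred and Pea3 genes the median was 0.15, or 0.22 without WT replicate 1. In the same edgeR test, 1 of the 3 was higher at an unadjusted p under 0.05, against 0.808% of all tested genes. This gene, Spry1, had 79.5, 81.9 and 86.3 normalized counts in WT and 96.2, 111 and 130 in Sgo1-/+. These groups did not overlap, and its log2 fold change was 0.44 (SE 0.186; by edgeR, unadjusted p = 0.0499 and adjusted p = 0.9999). Without WT replicate 1 the value was 0.42 and the unadjusted p by edgeR 0.0921.

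The 16 genes of the kinase cascade, which span Raf, MEK and ERK, their scaffolds and kinases that ERK activates, had a median log2 fold change of 0.04, and −0.06 without WT replicate 1, and 0 of them had an unadjusted p under 0.05 in edgeR's quasi-likelihood test. Pebp1, the Raf inhibitor also called RKIP and the most abundant of these per length, was at 0.06 (SE 0.106), or 0.02 without WT replicate 1. Rps6ka1, a kinase that ERK activates, had the most negative value of the list, −0.57, which was 0.15 without WT replicate 1. Without that library the counts of 2 of the 16 did not overlap and were lower in Sgo1-/+, against 9.15% of all tested genes. Of 18 adaptors and Ras regulators and 13 receptor tyrosine kinases, 0 had an unadjusted p under 0.05, with medians of −0.01 and 0.04, or −0.03 and 0.02 without WT replicate 1. In that case 1 of the 18 was called higher, against 1.86% of all tested genes. This was Gab1, a docking adaptor, at 0.60, which was 0.13 with all 6 libraries. Nras, a Ras GTPase, had 424, 483 and 564 normalized counts in WT and 580, 605 and 604 in Sgo1-/+, which do not overlap, and a log2 fold change of 0.28 (SE 0.130; by edgeR, unadjusted p = 0.0679 and adjusted p = 0.9999). It was 0.19 without WT replicate 1.

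Ntrk2, the BDNF receptor, was the most abundant of the receptor genes per length, with a log2 fold change of 0.15 (SE 0.188), and −0.02 without WT replicate 1. The 15 ligand genes had a median log2 fold change of −0.05, or 0.12 without WT replicate 1. In the latter case 2 of them were higher at an unadjusted p under 0.05 in edgeR's quasi-likelihood test, against 1.86% of all tested genes. They were Fgf18 at 1.41 and Hbegf, a ligand of the EGF receptor, at 0.53. With all 6 libraries Fgf18 was at −0.05 and Hbegf at 0.24.

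**Figure D5:**
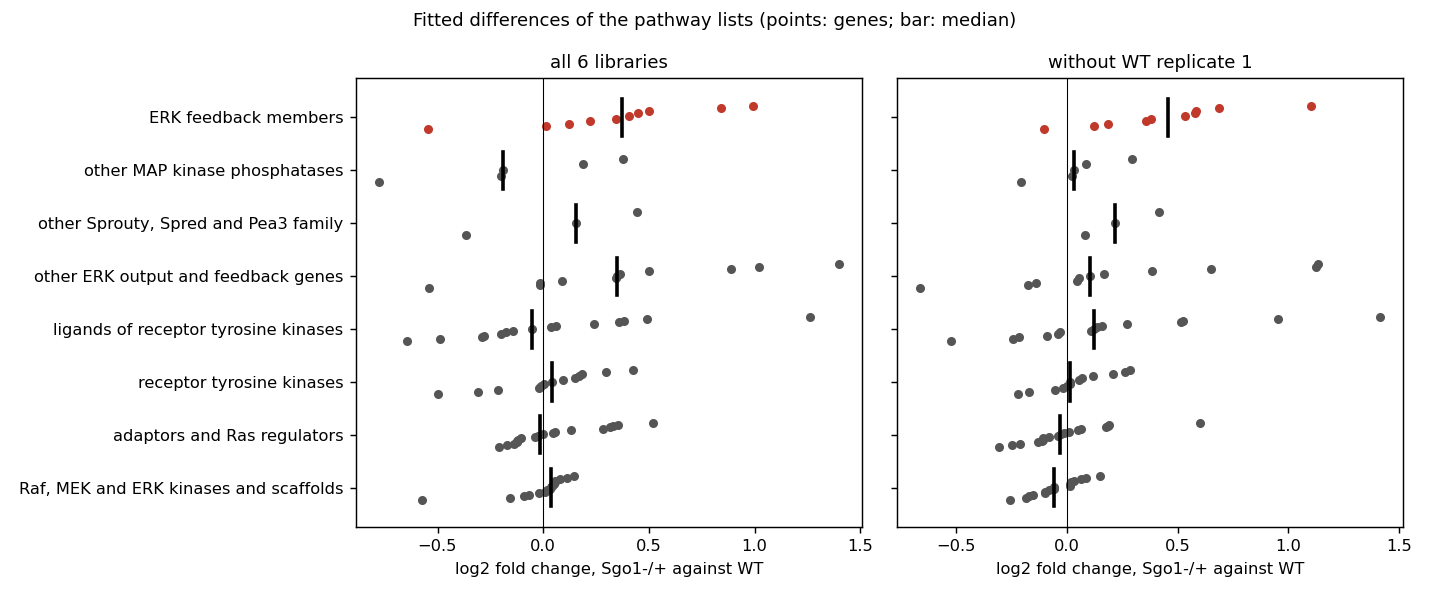
Log2 fold change of Sgo1-/+ against WT (horizontal axis) of each gene (points) in the ERK feedback group (red) and in 7 other lists of the pathway (grey), with a bar for the median, for all 6 libraries on the left and without WT replicate 1 on the right. The median of the feedback group is 0.38 on the left and 0.46 on the right, and that of the kinases and scaffolds is 0.04 and −0.06.

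Summed markers of some other cell types and tissues also separated the genotypes. The summed level of 5 microglia genes was 1726 to 2451 normalized counts in WT and 2737 to 2810 in Sgo1-/+. Of the 5, 1 was higher at an unadjusted p under 0.05 in edgeR's quasi-likelihood test, Csf1r, against 0.808% of all tested genes. The sum of 6 genes of oligodendrocyte precursors was 2971 to 3548 in WT and 3619 to 4495 in Sgo1-/+, with 0 of 6 called. Taken singly, 0 of these 6 genes had groups that did not overlap, where 3.28% of all tested genes did with Sgo1-/+ higher. Neither of these lists held a gene at 0 in any library. The sum of 6 genes of the olfactory bulb was 1973 to 2406 in WT and 796 to 1283 in Sgo1-/+. Of these 6, 0 were called in the 6 libraries and 0 had groups that did not overlap. Without WT replicate 1, 5 of 6 were called lower, against 1.91% of all tested genes. The other gene, Slc17a6, then had a log2 fold change of 0.68, which was −0.65 with all 6 libraries. Leaving out WT replicate 1 made the values of the 5 called genes more negative instead. The highest WT sum, 2406, was that of WT replicate 1 and includes Slc17a6, so it need not reflect the other 5 genes. The sum of 5 oligodendrocyte genes was 50255 to 54375 in WT replicates 2 and 3, 133737 in WT replicate 1 and 70768 to 125949 in Sgo1-/+. Without WT replicate 1, 5 of these 5 genes were higher at an unadjusted p under 0.05 in that edgeR test, against 1.86% of all tested genes. The sums of 6 astrocyte genes (41889 to 44132 in WT, 43798 to 47942 in Sgo1-/+) and of 5 endothelial genes (2413 to 2493 and 2273 to 2886) overlapped between the genotypes. So did those of 5 choroid plexus genes (496 to 20699 and 260.1 to 22638) and of 4 blood genes (3075 to 4832 and 1095 to 12902). The part of these markers in the values of Dusp6 and the other feedback genes was not tested.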

How the data were processed

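Brain RNA of 3 WT and 3 Sgo1-/+ mice was sequenced on an Illumina MiSeq (TruSeq V2 libraries). Paired reads were aligned by the authors in Strand NGS 2.1 against mm10, and the submitters' processing notes also name BWA and edgeR. They deposited an estimated count per Ensembl gene and library, not normalized, and log2 values made by DESeq normalization from which each gene's median was subtracted. These log2 values were not tested here. The deposited table also holds the authors' fold change as a log2 value, a signed score and a ratio without direction; the log2 column served only to check that columns Br1 to Br3 are WT. The column names do not carry the sample titles, and replicate numbers were taken from their S1 to S3 suffix. The annotation release and the use of strand are not given in the sources used here.

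The estimated counts were rounded, and the main test was the quasi-likelihood test of edgeR 4.0.16 (TMM, default filter on low counts, 16337 genes, no covariates, Benjamini-Hochberg adjustment, threshold 0.05). The SE is the size of the log2 fold change divided by the square root of F. Normalized counts are estimated counts scaled to the mean TMM library size, and levels per kb used GENCODE M21 exon lengths, which matched 36308 of the 38087 gene IDs. Hras and Hbb-bs were matched by gene ID under the older symbols of the table, and Sgo1 likewise as Sgol1; 1 listed gene, Spry3, was not analysed here. Total counts were 11123917 to 12505561 per library. The SE and p of the fits reflect the spread between mice of a genotype as well as counting error. The main edgeR fit and the DESeq2 and limma fits were first tested on simulated counts. These had the same dispersion for all genes and no outlying library, and the other settings were not simulated. Alternatives were DESeq2 1.42.0, limma 3.58.1 (log2, pseudocount 1, DESeq size factors), edgeR with DESeq2 size factors, no filter, a minimum of 10 counts per library, a term for sex, a replicate block, and each library left out. Females only and library size without TMM were chosen after seeing the data.

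The members and lists were chosen with earlier results of these data known. Named genes are the members, Sgo1, from each pathway list those with an unadjusted p under 0.05 or groups that do not overlap (at most 4, otherwise the most abundant per length) and the 5 genes nearest to Dusp6 in profile. Hoxb5, Csf1r, Slc17a6, Rps6ka1, Gab1, Fgf18, Hbegf, Xist and Ddx3y were added with their values known. A gene that this rule names is not reported here. The labels give each library its own mouse number.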

Additional observations from a re-analysis of the deposited data

How the results depend on the processing

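The count of genes past the adjusted threshold was 0 in the edgeR fit and became 3 with DESeq2's Wald test, 1 with females only, and 0 to 1 with a library left out. The count at an unadjusted p under 0.05 was 333 (132 higher, 201 lower) and became 563 without the filter on low counts and 578 with females only, and 240 to 1040 with a library left out; it was 626 without WT replicate 1 and 1040 without WT replicate 3. With library size alone in place of TMM the split was 98 higher and 276 lower. The median log2 fold change of the 10 genes stayed between 0.28 and 0.46 with a library left out. The count of members that did not overlap with Sgo1-/+ higher was 4 to 6, with 6 reached without Sgo1-/+ replicate 1. Of all tested genes this held for 3.28% with all 6 libraries and for 8.84% without WT replicate 1. The share is not given for the other subsets of libraries, so nothing is read from the range of this count. Without WT replicate 3 the groups of Dusp5 did not overlap either, with Sgo1-/+ lower. The count of the 9 members other than Dusp6 with an unadjusted p under 0.05 by edgeR, DESeq2 or limma was 1 to 4, lowest without Sgo1-/+ replicate 3. Of 150 log2 fold changes of the members under the alternatives, 5 changed sign, all of Spry4: −0.074 with library size alone, and from −0.24 to 0.58 with a library left out (negative without WT replicate 2 or 3 and without Sgo1-/+ replicate 2 or 3). Of 134 values of the other pathway genes that the rule names, 3 changed sign, Pebp1 (−0.0019 with library size alone) and Ntrk2 (−0.017 without WT replicate 1 in a range up to 0.26 with a library left out, and −0.0083 with females only). The causes were not tested. Libraries that share a replicate number did not deviate together (r across genes of −0.15, 0.014 and −0.21 for numbers 1, 2 and 3; genes are not independent replicates), so the numbers were not taken as pairs. With the replicate number as a block, 280 genes had an unadjusted p under 0.05, 0 passed the adjusted threshold, the members' median was 0.41 and 4 of the 9 were called at an unadjusted p under 0.05. Etv4 and Dusp4, under 10 CPM, carry more counting error than Spred1.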
